A study of Mus musculus with 189 samples.

Results

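Histone acetylation is written by acetyltransferase complexes and erased by deacetylases, and 6 genes of this machinery were followed through mouse preimplantation development: Hat1, Tada2a, Tada3, Dmap1, Hdac1 and Sirt1. They were chosen by name and function from the 192 assays of a microfluidic qPCR screen and are 6 of the 156 assays that the deposited table marks as passed. Expression is given as 30 minus the cycle threshold (Ct, the PCR cycle at which a product appears), minus the mean of the same quantity for the control genes Hnrnpr, Ssu72 and Ube2e1. A value of 0 therefore equals the mean of the control genes in that sample, and a step of 1 on this log2 scale is a factor of 2. Levels of different genes were not set against each other, since each assay has its own efficiency.

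Acetyl groups neutralise the positive charge of lysines in histone tails, loosen chromatin and are read by bromodomain proteins. Hat1 acetylates newly made histone H4 before it is deposited on DNA. Tada2a and Tada3 are adaptor subunits of the complexes built around the acetyltransferases GCN5 and PCAF, and Dmap1 is a subunit of the TIP60 acetyltransferase complex and a partner of the DNA methyltransferase Dnmt1. Hdac1 is the catalytic deacetylase of the Sin3, NuRD and CoREST complexes, whereas Sirt1 is a deacetylase that depends on NAD. The oocyte is transcriptionally silent, so its transcripts are the maternal supply, and the embryonic genome of the mouse is switched on mainly at the 2-cell stage.

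Oocytes came from superovulated (C57BL/6 x DBA/2) F1 females, and embryos from such females mated to C57BL/6 males. Embryos were kept in KSOMaa medium at low oxygen. The main set held 168 samples: 11 MII oocytes, 14 zygotes, 21 samples of the 2-cell, 7 of the 3-cell, 12 of the 4-cell, 27 of the 8-cell, 26 of the 16-cell and 50 of the 32-cell stage. Samples of 1 embryo were averaged first, which left 58 units, namely 11 oocytes, 14 zygotes and 8, 3, 6, 7, 2 and 7 embryos of the later stages in that order. Nothing in the sources used here says which oocytes and embryos shared a female, so p-values measure the spread between these samples. The 11 2-cell blastomeres whose embryo is not named were counted as 1 unit. Most late samples were single blastomeres (20 of 26 and 32 of 50) and the others were small groups. Both embryos behind the 16-cell stage carry cell numbers above 16 in their sample names, so their exact cell number is uncertain. Of the stage markers, mean Dazl was at 3.49 in oocytes and −10.88 in 32-cell samples, ZP3 at 1.98 and −9.37, and Nanog at −17.08 and 0.77. Mean Eif1a was at −7.78 in zygotes and 0.24 in 2-cell samples. Cdx2 did not rise steadily, with means of −7.90 in oocytes, −13.67 in 4-cell, −0.05 in 16-cell and −5.40 in 32-cell samples.

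The depth of a qPCR sample is set by the material that entered it. The control genes lay between 16.5 and 18.1 (30 minus Ct) in oocytes and zygotes, and had medians of 13.7 in 2-cell, 14.0 in 16-cell and 12.3 in 32-cell samples. Of the 6 genes, 5 were detected in every sample of the main set. Tada3 was detected in all samples up to the 4-cell stage and was undetected in 1 of 27 8-cell, 1 of 26 16-cell and 15 of 50 32-cell samples. An undetected gene has a Ct of 30, so its normalized value is minus the control level of its sample and is an upper bound. Fewer transcripts per cell and fewer intact cells in a sample cannot be told apart from these values.

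Between MII oocytes and 16- and 32-cell embryos, Hdac1 and Hat1 rose and Tada3, Dmap1, Sirt1 and Tada2a fell relative to the control genes. All 6 passed the threshold of 0.05 after Benjamini-Hochberg adjustment in limma, beside 84.6% of the 156 genes tested. Hdac1 was higher by 4.26 ± 0.24 (log2 difference ± SE) and Tada3 differed by −5.76 ± 0.49, or by −3.85 when samples without detected Tada3 were left out. Hat1 was higher by 0.89 ± 0.21, Dmap1 lower by 1.73 ± 0.19, Sirt1 by 1.63 ± 0.28 and Tada2a by 1.38 ± 0.25. The median over all genes was −0.35 and over the 6 genes −1.51. The gain of Hat1 depends on the reference: relative to Gapdh, Hspa8 and Lmnb1, as in the deposited normalized table, Hat1 was lower in late embryos by 2.67 (adjusted p = 4.5e-14, limma), and the gain of Hdac1 was 0.70.

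**Figure D1:**
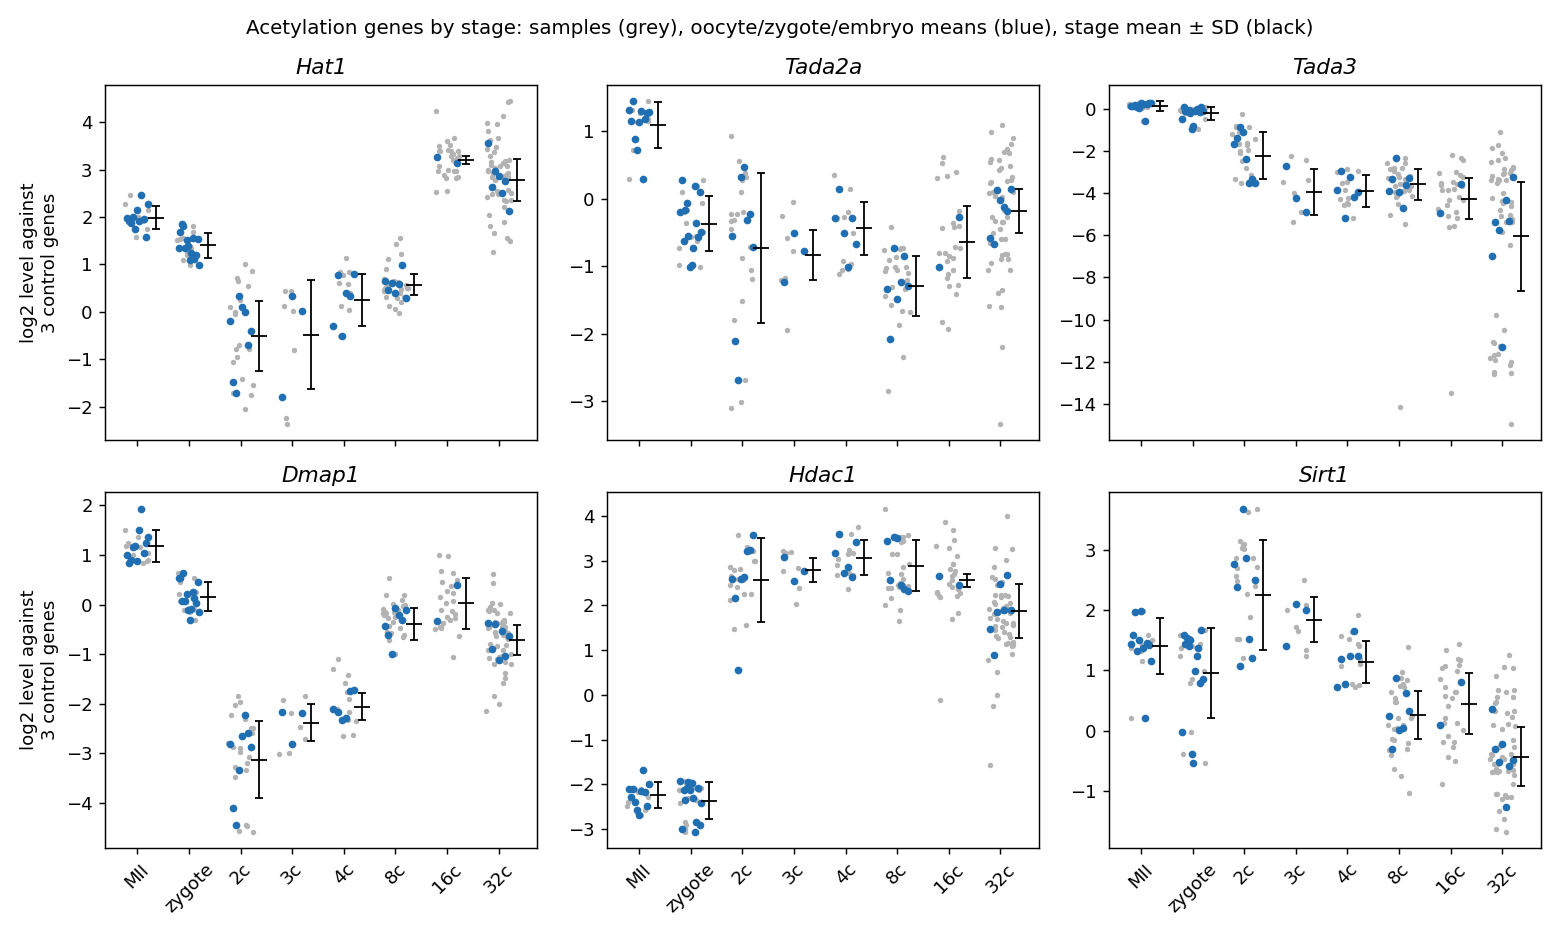
Log2 level of each gene relative to the mean of the 3 control genes (y axis) at 8 stages (x axis, from MII oocyte to 32-cell). Grey points are samples, blue points are means of oocytes, zygotes or embryos, and black marks are stage means ± SD over these. Hdac1 steps from −2.36 in zygotes to 2.56 in 2-cell embryos, Dmap1 is lowest in 2-cell embryos (−3.13), Hat1 is highest in 16-cell embryos (3.21), and undetected Tada3 forms the lower cloud at the 32-cell stage.

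The oocyte-to-zygote step was the most selective one. Only 3 of 156 genes passed the threshold (1.92%), and 2 of these are the adaptor Tada2a and the TIP60 subunit Dmap1, which both fell. The remaining gene was the Hippo effector Yap1, which was higher in zygotes (0.76, adjusted p = 0.0109, limma) and is named here after its value was seen. At an unadjusted p below 0.05, 22 genes differed.

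Tada2a ranged from 0.29 to 1.45 in the 11 oocytes, with a median of 1.19, and from −1.01 to 0.28 in the 14 zygotes, with a median of −0.42. Every zygote lay below every oocyte, although the lowest oocyte and the highest zygote almost touched. The mean level fell from 1.09 ± 0.34 (SD, n = 11) to −0.37 ± 0.41 (n = 14), a 2.75-fold loss (log2 difference −1.46 ± 0.22 SE, adjusted p = 4.18e-06, limma). Dmap1 ranged from 0.83 to 1.93 in oocytes (median 1.16) and from −0.31 to 0.63 in zygotes (median 0.11). Here too the groups did not overlap. Its mean fell from 1.18 ± 0.32 to 0.16 ± 0.29, a 2.03-fold loss (−1.02 ± 0.17, adjusted p = 1.32e-05). Non-overlapping values occurred in 3 of the 156 genes (1.92%), and the other one was the cell cycle kinase Cdk1, also named after its values were seen. For the later steps this share was not counted.

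The other 4 genes did not pass the threshold at this step. Hat1 ran from 1.57 to 2.47 in oocytes and from 0.99 to 1.85 in zygotes, so that 11 of 14 zygotes lay below every oocyte. Its difference was −0.58 ± 0.19 (95% interval −0.96 to −0.19, adjusted p = 0.125, limma), and it passed when oocytes and zygotes were fitted on their own (adjusted p = 0.00035). Sirt1 differed by −0.44 (−0.94 to 0.05), Tada3 by −0.33 (−1.21 to 0.54) and Hdac1 by −0.13 (−0.56 to 0.30). Hdac1 had means of −2.23 in oocytes and −2.36 in zygotes, with oocytes between −2.67 and −1.68 and zygotes between −3.05 and −1.92.

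Some samples stood apart at this step. The study's sample list names zygotes 4 to 14 with an added letter A and zygotes 1 to 3 without it. In zygotes 1 to 3, Sirt1 was at −0.02, −0.38 and −0.54, below the range of 0.79 to 1.67 in the 11 others, and Tada3 was at −0.49, −0.97 and −0.82, below −0.20 to 0.09. Their control genes were at 17.6 to 18.1, above those of each other zygote. Oocyte 6 had low Sirt1 (0.22, other oocytes 1.15 to 1.99) and low Tada3 (−0.57, others 0.04 to 0.28) with a control level of 17.7. What the letter stands for is not given in the sources used here, and the part of the control level in these values was not tested.

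Tada2a and Dmap1 held within either series of zygotes. Against zygotes 4 to 14 alone, Tada2a differed by −1.36 (adjusted p = 8.18e-05, limma) and Dmap1 by −0.99 (adjusted p = 0.000109). Against zygotes 1 to 3 alone, the differences were −1.82 and −1.15 (adjusted p = 0.000996 and 0.00836). Without oocyte 6 and zygotes 1 to 3 they were −1.44 and −0.91. The Sirt1 difference was −1.72 against zygotes 1 to 3 (adjusted p = 0.000996) and −0.09 against the others. Oocyte 5, which the study left out, had a control level of 14.9 with Tada2a at −2.86 and Dmap1 at −3.88, and with it and the other 2 left-out samples in the fit the differences were −1.13 (adjusted p = 0.0763) and −0.60 (adjusted p = 0.552).

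**Figure D2:**
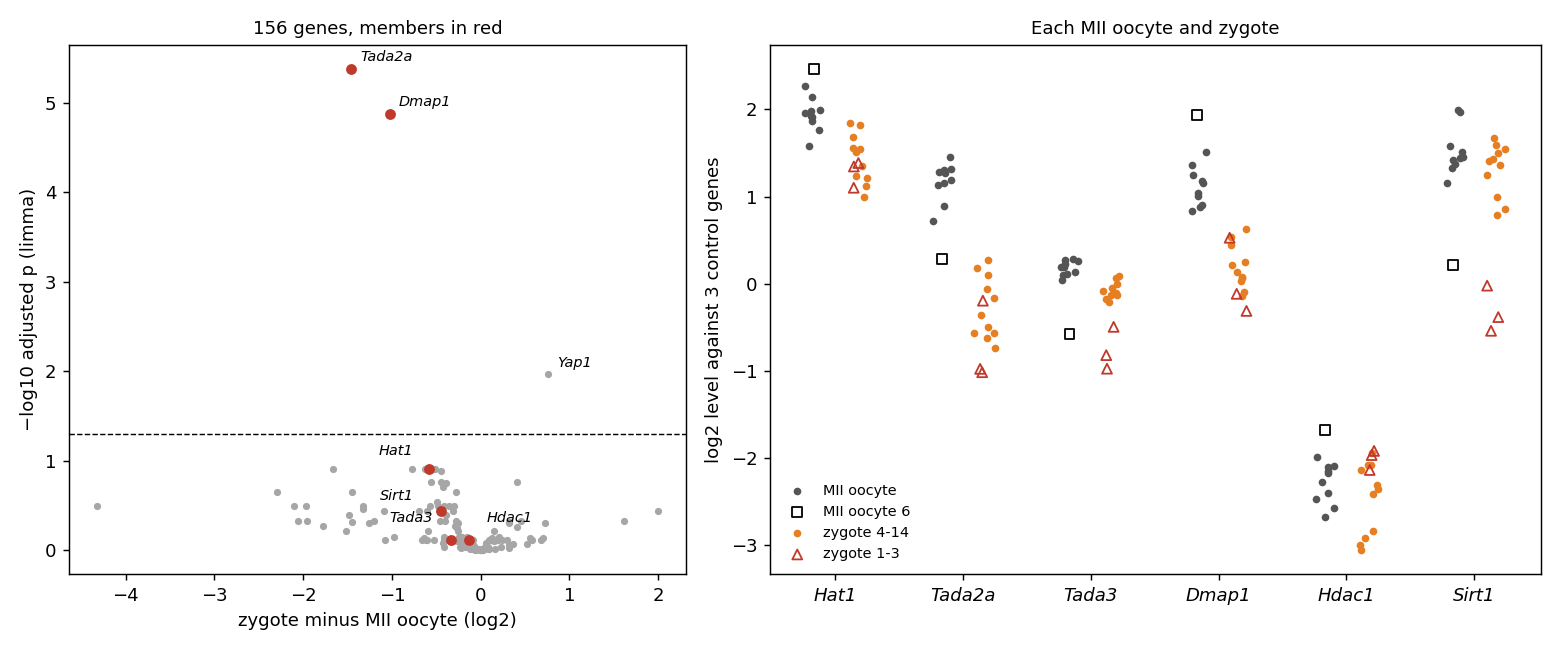
Left, log2 difference between zygotes and MII oocytes (x axis) against −log10 of the adjusted limma p (y axis) for 156 genes, with the 6 acetylation genes in red and a dashed line at 0.05. Right, log2 level against the control genes in each oocyte and zygote, with oocyte 6 as a square and zygotes 1 to 3 as triangles. Tada2a and Dmap1 are the only acetylation genes above the line, and their oocytes lie above all zygotes.

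The sequences before the starts of Tada2a and Dmap1 are shown because these are the members that fell together at this step. RefSeq gene entries matched 6 of the 6 genes and promoter windows 5, Hdac1 being without a window. The window of each was cut at the outer end of the annotated gene (GRCm38.p6, chr11:84078920-84129644 for Tada2a and chr4:117674681-117682321 for Dmap1, both on the minus strand), so what is printed is chr11:84129645-84129818 and chr4:117682322-117682475. Capitals mark matches on either strand to the GC box (GGGCGG), the box named after its letters CCAAT, the E-box (CACGTG), the TATA box (TATAAA) or the ETS core (CGGAAG), none of which overlap here.
Tada2a: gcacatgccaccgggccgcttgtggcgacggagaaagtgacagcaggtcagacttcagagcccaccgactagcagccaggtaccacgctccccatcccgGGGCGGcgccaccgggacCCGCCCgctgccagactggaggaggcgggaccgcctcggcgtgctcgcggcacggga
Dmap1: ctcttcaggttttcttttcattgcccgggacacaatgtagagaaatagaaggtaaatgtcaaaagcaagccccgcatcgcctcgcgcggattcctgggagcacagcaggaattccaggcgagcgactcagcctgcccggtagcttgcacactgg
The Tada2a window of 174 bases holds 2 GC boxes, a motif found in 20% of 32851 windows of that length, and the Dmap1 window of 154 bases holds none of the 5 motifs. The windows of that length hold CCAAT in 23.9%, the E-box in 3.52%, the TATA box in 8.19% and the ETS core in 7.57%, and those of the Dmap1 length hold the 5 motifs in 17.3%, 20.5%, 2.99%, 7.44% and 6.52% in the order above. Tada2a has a GC content of 71.8% here and 19 CpG sites, against medians of 51.1% and 3 over all windows, and Dmap1 54.5% and 9, against 50.6% and 3.

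From the zygote to the 2-cell stage, 5 of the 6 genes passed the threshold, 2 up and 3 down, beside 68.6% of all genes. Hdac1 and Sirt1 rose, and Dmap1, Hat1 and Tada3 fell. The rise of Sirt1 holds relative to the control genes: without them it was at −1.71 per sample (adjusted p = 5.08e-05, limma) and −0.81 per whole embryo (adjusted p = 0.0204). The deacetylase Hdac4 did not pass (−0.87, adjusted p = 0.0941). Hdac1 changed most: the 14 zygotes lay between −3.05 and −1.92, and the 21 2-cell samples between 0.56 and 3.56 with a median of 2.60. The difference was 4.93 ± 0.24 (30.5-fold, adjusted p = 5.13e-25, limma). Sirt1 rose by 1.29 ± 0.27 (adjusted p = 3.56e-05), with 2-cell samples between 1.07 and 3.68 overlapping the zygotes.

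Dmap1 went on falling and reached its lowest level. It lay between −4.58 and −1.84 in 2-cell samples (median −2.90), and the difference was −3.29 ± 0.19 (9.76-fold, adjusted p = 6.19e-22, limma). Hat1 fell by 1.92 ± 0.21 (3.77-fold) to a 2-cell range of −2.05 to 1.01 that met the lowest zygotes at 0.99. Tada3 fell by 2.01 ± 0.48 (4.02-fold, adjusted p = 0.000213), with 2-cell samples between −3.53 and −0.27. Tada2a, which had dropped one step earlier, differed by −0.36 (−0.85 to 0.14, adjusted p = 0.191).

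The 2-cell samples also carry names with and without the letter A (18 and 3 samples). Tada3 was at −3.53, −3.52 and −3.35 in the 3 whole embryos without it and between −3.15 and −0.27 in the 18 others. Between zygotes and 2-cell samples that both carry the letter, the differences were 4.56 for Hdac1, 1.24 for Sirt1, −3.66 for Dmap1 and −1.41 for Tada3, and between those that both lack it 5.34, 2.06, −2.59 and −2.71. Each of these 4 genes kept its direction and passed the threshold in either pair. Tada2a, which did not pass, was at −0.64 in the former and 0.31 in the latter. The Tada3 difference no longer passed against zygotes 1 to 3 alone (−1.47, adjusted p = 0.129, limma), with every sample as a replicate (−1.67, adjusted p = 0.0876) or with single cells only (−1.70, adjusted p = 0.083).

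At the later cleavage steps the genes parted. Between 2-cell and 4-cell embryos, 4 of the 6 passed (32.7% of all genes): Dmap1 rose by 1.07 ± 0.23 (adjusted p = 0.000415, limma) and Hat1 by 0.75 ± 0.26 (adjusted p = 0.0232), while Sirt1 fell by 1.11 ± 0.33 (adjusted p = 0.00933) and Tada3 by 1.67 ± 0.59 (adjusted p = 0.0265). The calls of Hat1 and Tada3 were lost when 1 of several embryos was left out, with the smallest differences at 0.58 for Hat1 without the 2-cell embryo A.e2 (adjusted p = 0.0728) and −1.42 for Tada3 without 4-cell embryo 3 (adjusted p = 0.0765). In a fit of these 2 stages alone, Dmap1 (adjusted p = 0.051), Hat1 (0.17) and Sirt1 (0.065) did not pass. Between 4-cell and 8-cell embryos, 3 of the 6 passed (49.4% of all genes). Dmap1 rose again by 1.66 ± 0.23 (3.16-fold, adjusted p = 3.08e-08), from a sample range of −2.65 to −1.09 to one of −1.01 to 0.53. Sirt1 fell by 0.87 ± 0.34 (adjusted p = 0.0294) and Tada2a by 0.85 ± 0.31 (adjusted p = 0.0192), and both calls were lost without Ssu72 or Ube2e1 among the control genes.

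Between 8-cell and 16-cell embryos, Hat1 alone of the 6 passed (28.2% of all genes did). Its 8-cell samples lay between −0.03 and 1.57 and its 16-cell samples between 2.54 and 4.24, and the difference was 2.64 ± 0.38 (6.23-fold, adjusted p = 2.72e-07, limma). Only 2 embryos stand behind the 16-cell stage, at 3.27 and 3.14. Against Gapdh, Hspa8 and Lmnb1 the same difference was 0.76 (adjusted p = 0.163), while Dmap1, Sirt1 and Tada2a turned to −1.46, −1.69 and −1.23 from 0.42, 0.18 and 0.65. Between 16-cell and 32-cell embryos none of the 6 passed in limma (10.9% of all genes did), and Dmap1 and Tada3 of the 6 were below an unadjusted p of 0.05. Their differences were −0.73 (−1.41 to −0.06) and −1.78 (−3.53 to −0.03), with adjusted p of 0.187 and 0.202.

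The order of stages was as follows, where neighbours are said to differ if the 95% interval of their difference in limma leaves out 0. Hat1 was highest in 16-cell (3.21 ± 0.09) and 32-cell embryos (2.78 ± 0.44), which did not differ from each other, then fell through oocytes (1.99), zygotes (1.41) and 8-cell embryos (0.57), each different from the one before, to 4-cell (0.24), 3-cell (−0.48) and 2-cell embryos (−0.51 ± 0.74). In that lower part the 8- and 4-cell and the 3- and 2-cell means did not differ. Tada2a had its highest mean in oocytes (1.09 ± 0.34), apart from 32-cell embryos (−0.18) by 0.74 to 1.81. Below that, no neighbours differed down to the 8-cell stage (−1.29 ± 0.44).

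Tada3 was highest in oocytes (0.11) and zygotes (−0.22), which did not differ, followed by 2-cell embryos (−2.23 ± 1.12) and a plateau of 8-, 4-, 3- and 16-cell embryos between −3.60 and −4.26, and was lowest at the 32-cell stage (−6.04 ± 2.58). Within the plateau no neighbours differed, whereas 2- and 8-cell and 16- and 32-cell embryos did. The last rank rests on the 15 samples without detected Tada3: the mean over the 35 other 32-cell samples was −3.64, and the difference between 16- and 32-cell embryos was 0.21 with detected samples only and 1.77 in whole embryos. Dmap1 had a U shape, with oocytes (1.18) above zygotes (0.16), then 16-cell (0.02), 8-cell (−0.40) and 32-cell embryos (−0.71), whose neighbours did not differ, and then a gap of 1.35 to 4-cell embryos (−2.06). The 4-cell and 3-cell means (−2.39) did not differ, and the 2-cell mean (−3.13 ± 0.78) was below the latter. Hdac1 had its 6 embryo means between 1.88 (32-cell) and 3.06 (4-cell), where no neighbours in rank differed. Of stages further apart in rank, only 2- against 4-cell and 8- against 16-cell embryos were tested. Neither pair passed (adjusted p = 0.172 and 0.624, limma). The oocyte mean (−2.23) lay 4.11 below the lowest of these and did not differ from that of zygotes (−2.36). Sirt1 ran in order from 2-cell (2.25 ± 0.91) and 3-cell embryos (1.84) through oocytes (1.40), 4-cell embryos (1.14), zygotes (0.96), 16-cell (0.45) and 8-cell embryos (0.27) to 32-cell embryos (−0.43 ± 0.48). Of these neighbours, 8-cell and 32-cell embryos differed and the others did not.

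The range of stage means was 6.16 for Tada3, 5.43 for Hdac1, 4.31 for Dmap1, 3.71 for Hat1, 2.67 for Sirt1 and 2.38 for Tada2a, beside a median of 4.21 over all 156 genes. By the smallest root mean square difference of centred stage means over 8 stages, the nearest genes were Jarid2 (0.51) and Dnmt3b (0.64) for Hat1, Hells (0.40) and Prdm2 (0.44) for Tada2a, and Phf8 (0.79) and Atrx (0.92) for Tada3. For Dmap1 they were Eed (0.73) and Kdm2b (0.81), for Hdac1 Prdm10 (0.47) and Yy1 (0.54), and for Sirt1 Ctcf (0.51) and Rnf2 (0.54). No acetylation gene was among the 2 nearest of another.

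Of a list of other acetylation genes, 3 were on the chip: Brdt, a germline bromodomain protein that binds acetylated histones, the acetyltransferase Clock of the circadian oscillator, and the class IIa deacetylase Hdac4. None of them passed between oocyte and zygote or between zygote and 2-cell embryo in limma, with Clock nearest at −0.61 (adjusted p = 0.0511). Between the 4-cell and the 8-cell stage all 3 fell, Brdt by 4.05 ± 0.36, Clock by 2.63 ± 0.36 and Hdac4 by 1.61 ± 0.59 (adjusted p = 1.36e-13, 1.27e-08 and 0.0213). Brdt fell by a further 4.34 to the 16-cell stage and, with Clock at −2.65, from oocytes to late embryos by 9.21 ± 0.29. Brdt was undetected in 6 of 26 16-cell and 17 of 50 32-cell samples, so these differences depend on the level given to undetected values, and its sample medians there were −3.72 and −3.52 against stage means of −5.73 and −5.67. The same limit holds for Hdac4, undetected in 4 of 27 8-cell and 3 of 50 32-cell samples. Its 8-cell sample median was −4.29 against a stage mean of −4.74. Clock was undetected in 2 of 26 16-cell and 2 of 50 32-cell samples. In contrast to Hdac1, Hdac4 differed by only −0.57 (−1.53 to 0.39) from oocytes to late embryos.

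The amount per whole oocyte or embryo was read from 30 minus Ct without control genes, in the 11 oocytes, 14 zygotes and 3 whole embryos each of the 2-, 4-, 8-, 16- and 32-cell stage. Tada2a fell by 1.47 ± 0.25 (adjusted p = 0.000125, limma) and Dmap1 by 1.03 ± 0.28 (adjusted p = 0.0344) between oocyte and zygote, 2 of only 4 genes called (2.56%). The Dmap1 call was lost with 1 of several oocytes or zygotes left out (oocyte 1, 4, 6, 7 or 12 or zygote 4 or 6, with the smallest fall of 0.89 and adjusted p = 0.0815 without oocyte 6) and with the number in the sample name as a block (adjusted p = 0.166). None of the 6 passed in limma between 2- and 4-cell embryos, a step at which 0.641% of genes did, and none had an unadjusted p below 0.05.

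Between the zygote and the 2-cell embryo, all 6 genes passed (77.6% of all genes), 5 of them downwards, and the median gene fell by 1.79. Tada3 fell by 4.83 ± 0.38 (28.5-fold), Dmap1 by 4.31 ± 0.44 (19.8-fold), Hat1 by 3.37 ± 0.41, Tada2a by 1.64 ± 0.39 and Sirt1 by 0.81 ± 0.32, so the Sirt1 gain relative to the control genes was a loss per embryo that was smaller than the median. The 3 2-cell embryos lack the letter A, which 11 of the 14 zygotes carry. In zygotes 1 to 3, also without it, Sirt1 was at 17.63, 17.46 and 17.56, beside 17.83, 17.39 and 16.44 in the 2-cell embryos. The part of the name series in these differences per embryo was not tested. Hdac1 rose by 4.11 ± 0.43, or 17.3-fold: it was at 19.5, 19.4 and 17.5 in the 3 2-cell embryos and between 13.5 and 16.1 in zygotes. The embryo at 17.5 was the lowest of the 3 for each of the 6 genes. Without it the fall of Sirt1 was 0.42 (adjusted p = 0.298) and that of Tada2a 0.72 (adjusted p = 0.074).

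Per embryo, Dmap1 rose by 2.48 ± 0.56, Tada3 by 1.76 ± 0.49 and Hat1 by 1.55 ± 0.53 between 4- and 8-cell embryos, where 25.6% of all genes passed. Leaving out 4-cell embryo 3 removed the call of Tada3 (1.27, adjusted p = 0.0752). That of Hat1 was lost without 4-cell embryo 1 or 3 or 8-cell embryo 1 or 2, with the smallest value at 1.30 (adjusted p = 0.146). At the next step all 6 rose, with 80.1% of all genes and a median rise of 2.79. Hat1 stood out with a rise of 4.41 ± 0.53, from 17.6, 17.9 and 16.7 to 20.98, 22.45 and 22.05, whereas Tada3 rose by 1.08 ± 0.49 (adjusted p = 0.0405), a call lost without 8-cell embryo 1 or 3 or 16-cell embryo 2 or 3, with the smallest value at 0.52 (adjusted p = 0.357). From 16- to 32-cell embryos 5 of the 6 fell (65.4% of all genes, median fall 2.46), led by Hdac1 with 4.41 ± 0.55, from 21.8, 23.1 and 22.1 to 17.4, 18.2 and 18.2. The control genes Hnrnpr, Ube2e1 and Ssu72 differed by −2.87, −1.95 and −0.89 here, after rises of 2.21, 2.23 and 2.80 at the step before. The part of the material that entered each sample in these differences was not tested. Tada3 did not pass (−0.14, −1.12 to 0.85), and was at 13.6, 14.7 and 15.8 in 16-cell and 13.5, 14.8 and 15.5 in 32-cell embryos.

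**Figure D3:**
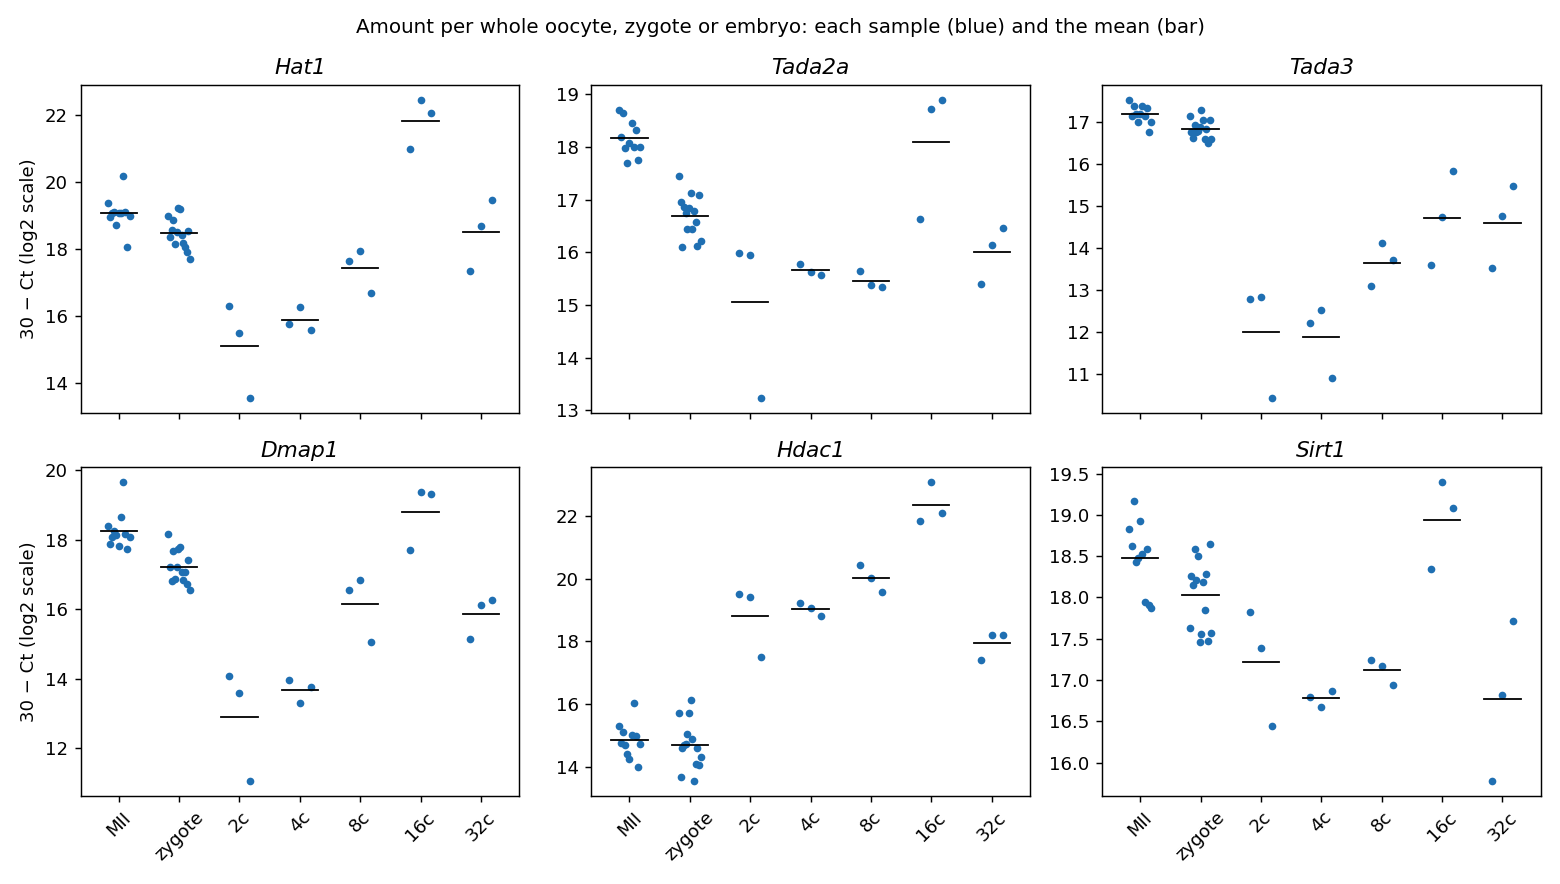
30 minus Ct per whole oocyte, zygote or embryo (y axis, log2 scale, no control genes) at 7 stages (x axis) for the 6 genes. Points are samples and bars are means. Hdac1 rises between zygote (14.7) and 2-cell embryo (18.8) while Dmap1 drops from 17.23 to 12.92 and Tada3 from 16.84 to 12.01.

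Tada3 in blastomere samples (single cells and small groups) and in whole embryos gave different pictures of the last step. Normalized to the control genes, the whole 16-cell embryos were at −4.56, −5.12 and −3.92 and the whole 32-cell embryos at −2.98, −2.78 and −2.55, a difference of 1.77 upwards (adjusted p = 0.00898, limma). In the same whole embryos Hdac1 fell by 2.50 (adjusted p = 1.74e-05), Hat1 by 1.43 (adjusted p = 0.00343) and Dmap1 by 1.05 (adjusted p = 0.0136), so 4 of the 6 genes passed there and none in the blastomere samples. For Tada3 the blastomere samples gave −1.78, and 0.21 (adjusted p = 0.858) when samples without detected Tada3 were left out. Detected 32-cell values ran from −6.47 to −1.10 with a median of −3.36. Undetected Tada3 was unevenly spread, with 5 of 5 samples of embryo 10, 4 of 12 of embryo 1, 3 of 9 of embryo 9, 2 of 10 of embryo 8, 1 of 5 of embryo 12 and none of the 3 and 6 samples of embryos 11 and 13. The control genes had a median of 11.8 in the 15 samples without and 12.55 in the 35 samples with detected Tada3. The part of the control level in these calls was not tested. The blastomere samples also differed between stages on the lineage score of the next paragraph: 17 of 26 16-cell samples and 10 of 50 32-cell samples lay below 0. The part of this make-up in the difference between stages was not tested.

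Within late embryos, blastomeres were placed on a lineage score, the mean of 12 core genes of the inner cell mass (ICM, the future embryo) minus the mean of 8 core genes of the trophectoderm (TE, the future placenta). The study chose these core genes on the same samples, and none of the 6 genes is among them. The score ran from −8.71 to 10.12 over 76 samples of 9 embryos. With the embryo as a block, 3 of the 6 genes passed in limma, beside 30.9% of the 136 genes outside the core lists. Hdac1 and Tada2a were higher towards the ICM end and Tada3 towards the TE end. Control genes also passed, each relative to the mean of all 3. Ube2e1 had a slope of −0.0291 (adjusted p = 0.0064, limma) and Ssu72 of 0.0246 (adjusted p = 0.0392), so the slopes depend on the control genes chosen.

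Hdac1 had a slope of 0.0742 ± 0.0151 log2 units per unit of score (95% interval 0.0441 to 0.104, adjusted p = 0.000161, limma), positive in 6 of 9 embryos. This fit takes the blastomere samples as replicates within embryos. With 1 slope per embryo as the replicate, each weighted by its sum of squares of the score, Hdac1 passed with an adjusted p of 0.0321 (limma). The weights ran from 3.3 in 32-cell embryo 12 to 485 in 32-cell embryo 1. They give the same slope of 0.0742, and an unweighted fit was not run. In the 10 samples of lowest score it ranged from −1.56 to 2.29 (median 1.23), and in the 10 of highest score from 1.09 to 2.63 (median 1.60), so these overlap widely. The 3 embryos with a negative slope were 10, 11 and 12, with 5, 3 and 5 samples and the narrowest spread of scores. The slope was 0.112 in 16-cell and 0.0628 in 32-cell samples alone, and passed in both (adjusted p = 0.0145 and 0.0067). Without Ube2e1 among the control genes it was 0.0597 (adjusted p = 0.00275, limma). Without control genes it was 0.0411 and did not pass (adjusted p = 0.586).

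Tada3 had a slope of −0.231 ± 0.0655 (−0.362 to −0.100, adjusted p = 0.00388), negative in 7 of 9 embryos. The 7 include 32-cell embryo 10, where Tada3 was undetected in 5 of 5 samples. Its slope of −0.297 therefore reflects the control genes alone. With 1 slope per embryo as the replicate, weighted in the same way, Tada3 had an adjusted p of 0.0399 (limma). The 2 positive slopes, 1.89 and 0.0926, were those of 32-cell embryos 12 and 11, which had the smallest weights. Tada3 was detected in all 27 samples with a score below 0 and undetected in 16 of 49 above 0. At the 16-cell stage it was undetected in 0 of 17 samples below 0 and 1 of 9 above. At the 32-cell stage these were 0 of 10 and 15 of 40. Embryo 10, with Tada3 undetected in 5 of 5 samples, had no sample below 0. The 10 samples of lowest score lay between −3.56 and −1.74 and the 10 of highest score between −12.6 and −2.11. Among samples with detected Tada3 the slope was −0.0733 (adjusted p = 0.0187), which still passed the threshold. The control genes had a median of 14.0 in the samples below 0 and 12.4 in those above 0, and with their Ct as a covariate the slope was −0.222 (adjusted p = 0.00632). Without 32-cell embryo 1 it was −0.168 and did not pass (adjusted p = 0.073), and in 16-cell samples alone it was −0.141 (adjusted p = 0.322).

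The Tada2a slope of 0.0428 ± 0.0170 was at the threshold (adjusted p = 0.0464) and did not pass in most alternatives. Examples are the weighted fit with 1 slope per embryo as the replicate (adjusted p = 0.0956, limma) and the fit without control gene Ube2e1 (0.0282, adjusted p = 0.274). Without 32-cell embryo 1 the Tada2a slope was 0.0265 (adjusted p = 0.285). Dmap1 (0.0174, −0.00434 to 0.0391), Sirt1 (0.00976, −0.0179 to 0.0374) and Hat1 (0.00396, −0.0205 to 0.0284) did not pass. For none of the 6 did the slope differ between 16- and 32-cell samples in limma (2.94% of genes did), and none had an unadjusted p below 0.05. In 1 sample of ICM and 1 of TE, named after different 32-cell blastocysts and with no replicate, Tada3 was at −3.33 and −2.57 and Hdac1 at 1.80 and 0.29. In the same order, Sox2 was at −0.17 and −6.01, Nanog at 1.38 and 0.08 and the TE gene Cdx2 at 0.43 and 1.84. Dmap1, Hat1, Sirt1 and Tada2a were higher in the ICM sample by 1.08, 0.97, 1.36 and 0.99.

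**Figure D4:**
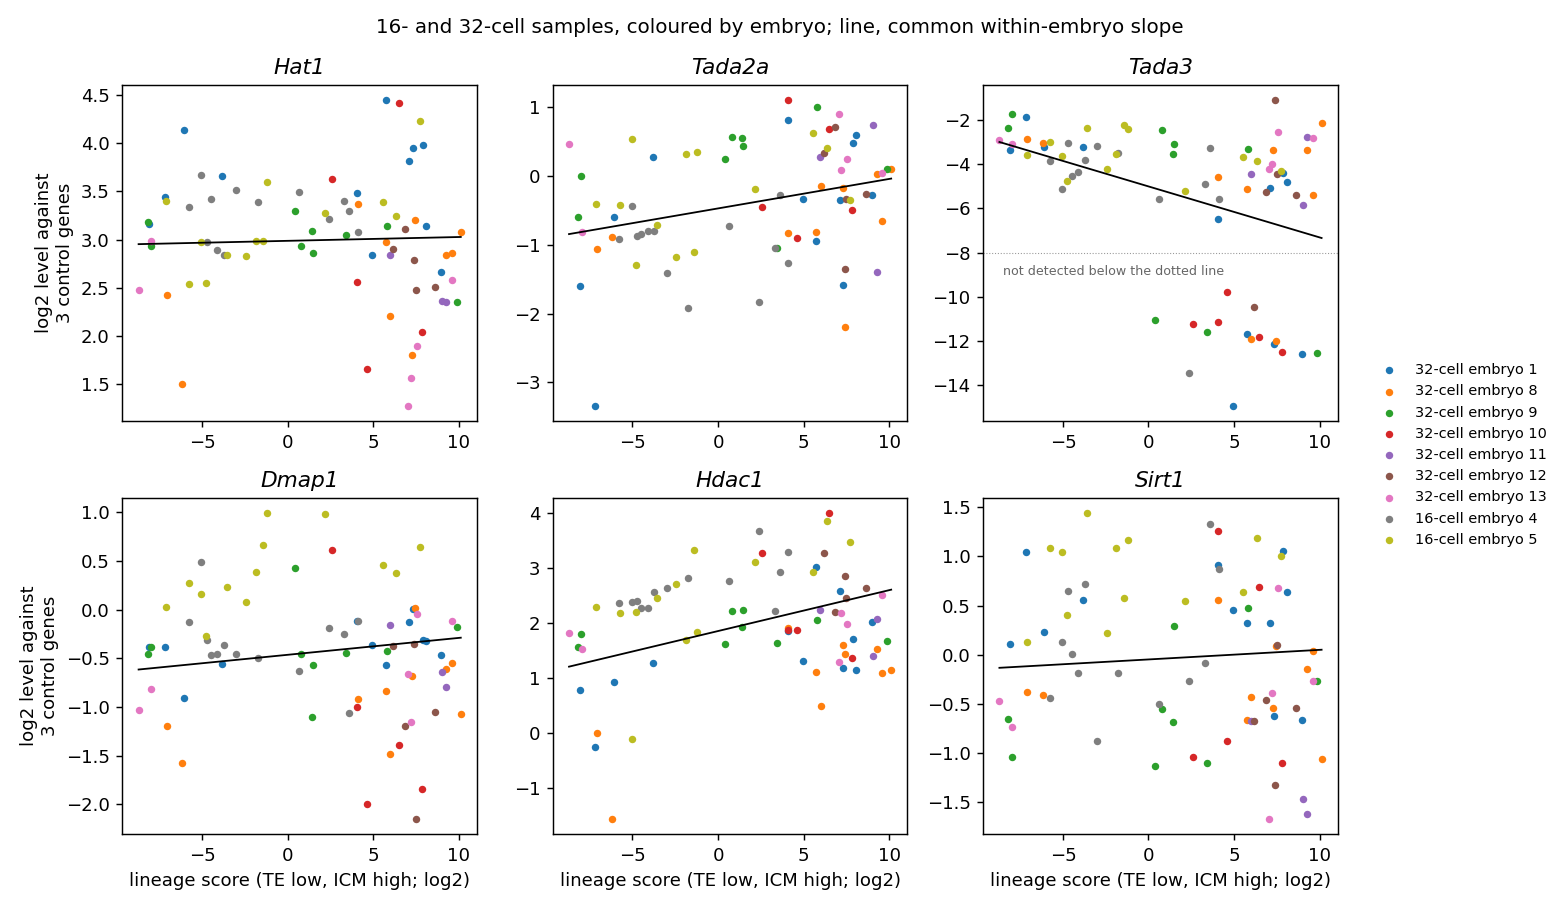
Lineage score (x axis, TE low and ICM high, log2) against the log2 level of each gene relative to the control genes (y axis) in 76 samples of 16- and 32-cell embryos. Points are samples coloured by embryo and the line is the common slope within embryos. All 16 samples without detected Tada3 lie at scores above 0.

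Between single blastomeres of the same embryo, Hat1, Hdac1 and Sirt1 varied less than the median gene at each of the 5 stages measured. Tada2a did so from the 4-cell stage on and Dmap1 from the 8-cell stage on. At the 2- and 4-cell stages Dmap1 was above the median, with SDs of 0.73 and 0.60 against 0.58 and 0.51. It had an SD within embryos of 0.29 at the 8-cell stage (24 cells of 4 embryos), where the median over all genes was 0.64 and only 5 genes were lower, and of 0.36 at the 16-cell stage (20 cells of 2 embryos, median 0.97). Hat1 had SDs of 0.36, 0.38 and 0.57 at the 8-, 16- and 32-cell stages, below the medians of 0.64, 0.97 and 1.32. At the same stages Hdac1 had SDs of 0.35, 0.86 and 0.87 and Sirt1 of 0.57, 0.51 and 0.69. Tada3 had SDs of 2.37, 2.21 and 3.59 with undetected values included. The first and the second each rest on 1 cell without detected Tada3, and among cells with detected Tada3 the SDs were 0.75 (23 cells), 0.90 (19 cells) and 1.45 (20 cells). Across the 76 late samples the highest pairwise correlation within embryos was that of Hat1 and Hdac1 (r = 0.46 after subtraction of embryo means), followed by Hat1 and Dmap1 (r = 0.36) and Dmap1 and Hdac1 (r = 0.31). Among the 15 pairs the lowest was Tada3 and Hdac1 at −0.19. All of these share the control genes subtracted in each sample.

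All 6 genes were detected in the 10 samples of embryonic stem cell (ESC) RNA, from 25 to 800 pg. Their signal rose by 0.82 (Tada3) to 1.08 (Hdac1) per doubling of RNA, beside a median of 0.997 over 118 genes detected throughout. Hat1 lay between 3.15 and 5.01 and Hdac1 between 1.52 and 3.14 in ESC, which overlaps the late embryos, and Tada3 lay between −2.87 and −1.12. Dmap1 was between −0.84 and 0.09 in 7 of the samples and at −1.39, −2.45 and −3.29 in the 3 named ESC2, with 160, 32 and 800 pg. The SD over 4 samples of 200 pg was 0.05 for Hdac1, 0.17 for Tada2a, 0.18 for Dmap1, 0.21 for Hat1, 0.38 for Tada3 and 0.64 for Sirt1. Of these samples, 3 are named ESC.a and 1 ESC.b, and Sirt1 was at 0.22, 0.27 and −0.06 in the former and 1.38 in the latter, with an SD of 0.18 over the former. Whether the named series share 1 RNA is not given in the sources used here.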

How the data were processed

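Expression of 192 assays in 189 samples was measured by reverse transcription and qPCR on microfluidic chips. The authors deposited a table of Ct values (a score on a log2 scale, not normalized, with 30 for undetected) and a table of log2 values normalized by the authors, which equals 30 minus Ct minus the mean of Gapdh, Hspa8 and Lmnb1 (largest difference 1.03e-08). Here Ct was normalized to Hnrnpr, Ssu72 and Ube2e1, and 36 assays marked as failed and 3 samples left out by the study were not used in the main comparisons. Embryo means were compared between stages with limma 3.58.1 in R 4.3.3 (lmFit, eBayes), with Benjamini-Hochberg adjustment over 156 genes in each step, and slopes on the lineage score were fitted with the embryo as a block. Tables were handled in Python 3.11.15 with pandas 2.3.3 and NumPy 2.4.6, and figures drawn with matplotlib 3.10.9. The fits were tested on simulated data.

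The 6 genes and the lists were chosen with earlier results of these data known. The genes named are these 6, other acetylation genes from a list, the 2 genes nearest each member in stage means, the control genes and stage markers. Alternatives covered the control genes, the deposited normalization, the unit of replication, the sample set, the number in the sample name as a block and each oocyte, zygote or embryo left out. Those on the series in the sample names, samples that stand apart, detected Tada3, late whole embryos alone and the ESC.a samples were chosen after seeing the data. Same-numbered samples did not deviate together (112 pairs, median r = 0.00695), so the numbers were not taken as pairs.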

Additional observations from a re-analysis of the deposited data

Results flagged for a closer look

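Hdac1 in the 2-cell embryo A.e2 was at 0.558, far below the other 2-cell embryos, of which the nearest was at 2.16 and the highest at 3.56. The gap to the nearest embryo was 0.534 of the whole range, above the critical value of 0.526 for 8 values. This was 1 of 24 groups of values tested, and chance marks about 1 in 20.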

How the results depend on the processing

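Of the alternative values of the leading results on the 6 genes and their counts, 573 were taken as kept. Of the others, 35 counts moved, and of the differences 4 were reversed, 3 stronger and 4 weaker. A difference was kept if direction and side of the threshold stayed. A count was also taken as kept after a small change, as from 5 to 6 between zygote and 2-cell with the deposited table. The exceptions follow, where the cause was not tested. With no normalization, Tada2a (−1.47, adjusted p = 0.119, limma) and Dmap1 (−1.03, adjusted p = 0.565) no longer passed between oocyte and zygote, leaving 0 genes of the 6, and with all mapped samples they were at −1.13 and −0.60, again 0 genes. In the fit of whole samples, also without control genes, the same differences of −1.47 and −1.03 passed (adjusted p = 0.000125 and 0.0344, limma). The later-stage samples that share the estimate of the spread differ between these 2 fits. Hat1 passed there without Hnrnpr (−0.72) and in a fit of these groups alone (−0.58), and Sirt1 against zygotes 1 to 3 (−1.72). Hdac1 turned positive there with the sample median (0.082), the deposited table (0.024), all mapped samples (0.010) and zygotes 1 to 3 only (0.23). With the number in the sample name as a replicate block, Tada2a was at −1.52 and Dmap1 at −1.05, both past the threshold. The block left 2 of the 6 called between 2- and 4-cell embryos and 1 per whole embryo between oocyte and zygote, and turned Sirt1 from 8- to 16-cell to −0.011 and Tada3 per whole embryo from 16- to 32-cell to 0.0097.

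The number of the 6 called fell from 4 to 2 between 2- and 4-cell embryos with all mapped samples, with late whole embryos added or with single cells only, and to 1 in a fit of these stages alone. Between 4- and 8-cell embryos it was 1 without Ssu72, without Ube2e1 or with no normalization. From 8- to 16-cell embryos it was 0 with no normalization, 5 with the deposited table and 2 with every sample as a replicate. From 16- to 32-cell embryos, where none passed, it was 1 with the sample median, 5 with no normalization or the deposited table, 4 with every sample a replicate, 3 with a random embryo effect, 2 with late whole embryos added and 4 with those alone. On the lineage score it was 1 with no normalization or 16-cell samples only. With each sample or embryo left out in turn the counts ran from 2 to 4 (2- to 4-cell), 1 to 3 (4- to 8-cell, also per whole embryo), 1 to 2 (oocyte to zygote per whole embryo) and 1 to 3 (lineage score).

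Directions also turned as follows. Tada2a was at 0.068 without Hnrnpr, 0.0015 against zygotes 1 to 3 and 0.31 among samples with no A from zygote to 2-cell, and −0.017 with the deposited table from 2- to 4-cell. From 4- to 8-cell, Tada3 was at −0.012 without Hnrnpr, −0.048 with every sample and −0.088 with single cells only, and Hdac1 at 0.29 with the sample median and 0.14 with no normalization. With no normalization, Sirt1 was at −1.71 from zygote to 2-cell and 0.17 from 2- to 4-cell, and Dmap1, Sirt1 and Tada2a from 8- to 16-cell at −0.94, −1.18 and −0.71. Tada2a from 16- to 32-cell was then at −1.51, and Hat1 and Hdac1 from oocyte to late embryos at −3.41 and −0.036. With the deposited table, Dmap1, Sirt1 and Tada2a were at −1.46, −1.69 and −1.23 from 8- to 16-cell, Tada2a at −0.70 from 16- to 32-cell and Hat1 at −2.67 over the whole span. Sirt1 from 8- to 16-cell was at −0.22 with the sample median and −0.27 with late whole embryos added. Late whole embryos alone gave −0.19 for Tada2a and 1.77 for Tada3 from 16- to 32-cell, and detected samples 0.21 for Tada3.

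Lineage slopes turned negative with no normalization (Hat1 −0.0292, Dmap1 −0.0158, Sirt1 −0.0234), with the deposited table (Hat1 −0.0112, Sirt1 −0.00537), with the sample median (Hat1 −0.0209, Dmap1 −0.00751, Sirt1 −0.0151), without Ube2e1 (Hat1 −0.0106, Sirt1 −0.00478), with single cells (Sirt1 −0.00974) and with 32-cell samples (Hat1 −0.00708). Leaving out 1 embryo moved Hat1 slopes from −0.00656 to 0.0159, Sirt1 from 8- to 16-cell from −0.18 to 0.54 and Tada3 there from −1.34 to 0.0073. Per whole embryo from 2- to 4-cell it moved Dmap1 from −0.16 to 1.35, Hat1 from −0.025 to 1.36, Hdac1 from −0.43 to 0.58, Tada2a from −0.31 to 1.07 and Tada3 from −0.93 to 0.36, and Tada3 from 16- to 32-cell from −0.70 to 0.42. Only 2 embryos stand behind the 16-cell stage and 3 whole embryos behind each later stage, which limits these steps, and undetected Tada3 has only an upper bound.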
